A study of Mus musculus with 36 samples.

Results

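The comparison described here is that of mouse embryonic fibroblasts (MEFs) carrying the GRD mutation on both alleles (GRD/D) with GRwt/wt MEFs, both treated for 5 h with the solvent of the steroid and without dexamethasone (Dex). It comprised 6 libraries, GRD/D vehicle replicates 1 to 3 and GRwt/wt vehicle replicates 1 to 3 of run 1, chosen by their labels out of 36 RNA-seq libraries. The other 30 libraries hold the same genotypes with 1 μM Dex, the double mutant GRD+L/D+L and the knockout GRko/ko in run 1, and GRL/L with a second set of GRwt/wt in run 2. GRD is a point mutation in the DNA-binding domain of the glucocorticoid receptor (GR) at the surface where 2 receptors meet, GRL lies in the dimer interface of the ligand-binding domain, and GRD+L carries both. All mutations were present in the germ line, so every cell of a culture carried them. By the labels all libraries are of strain FVB/NJ, but the mice crossed to obtain GRko/ko are described as 129 Sv in the methods. The cultures were grown out of mid-gestation embryos from which head and organs had been removed, in medium with fetal calf serum. The study describes 3 cultures per genotype, each from a different mouse.

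GR, encoded by Nr3c1, is a hormone-activated transcription factor that rests in the cytoplasm bound to chaperones and enters the nucleus when a glucocorticoid binds. It acts as a dimer on palindromic response elements, and it can also work through other factors such as AP-1, which drives matrix metalloproteinase genes. MEFs are mostly mesenchymal cells with the positional identity of the embryonic tissue they left, and primary cultures can also carry other cells of the embryo, among them macrophages.

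The libraries held 15656116 to 19102035 counts in GRD/D and 15280166 to 16396184 in GRwt/wt, and mitochondrial transcripts took 1.13 to 1.49% and 1.07 to 1.24% of them. All 6 libraries expressed Xist and had 10 counts or fewer over 4 Y-linked genes, so sex did not differ between the groups. In each of the 12 groups of the series the 3 libraries were of 1 sex. Whether cultures of a group share an embryo or a litter was not tested. The p-values measure only the spread between libraries, and those of edgeR take it from all 24 libraries of run 1, within genotype and treatment. The fibroblast identity was checked on 15 markers, all of which were detected. Their sum was 43760, 35104 and 50430 CPM (counts relative to the library size, scaled by TMM) in GRD/D and 45264, 45853 and 49013 CPM in GRwt/wt, with overlapping groups, and none of the 15 was called.

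Of 13066 autosomal genes tested, 284 (2.17%) were called between GRD/D and GRwt/wt at an adjusted p of at most 0.05 and a difference of at least 1 on the log2 scale (edgeR quasi-likelihood test, Benjamini-Hochberg adjustment). 204 genes (1.56%) were higher and 80 (0.612%) lower in GRD/D. Without the limit on the fold, 1417 genes (10.8%) passed the adjusted p, 714 of them higher and 703 lower. The excess of higher genes was thus among those that differed 2-fold or more. The median difference over all autosomal genes was -0.0024. The groups did not overlap in 280 of the 284 called genes, against 21.7% of all autosomal genes. Just inside the fold limit were Npl at 1.01 and a pseudogene at -1.003, and just outside it Slc40a1 at 0.996 and Artn at -0.998.

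Genes of macrophages led the higher set. Of 20 macrophage markers, 19 were tested, and 17 were called higher and 0 lower, against 1.56% and 0.612% of all autosomal genes. The median log2 difference of the 19 was 1.48. More cells of a type and more RNA per cell cannot be told apart in these bulk libraries.

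The summed level of the macrophage list was 870, 895 and 833 CPM in the GRD/D replicates and 259, 418 and 237 CPM in the GRwt/wt replicates. All GRD/D libraries lay above all GRwt/wt libraries, and GRwt/wt replicate 2 lay above the other two. The ratio of the means was 2.84, and the two-sided exact permutation test gave p = 0.1, the smallest that 3 against 3 libraries allow. In the other genotypes of run 1 the same sum was 39.4 to 48.7 CPM in GRD+L/D+L and 3582 to 3935 CPM in GRko/ko, so that GRD/D lay between GRwt/wt and GRko/ko and no ranges overlapped.

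**Figure D1:**
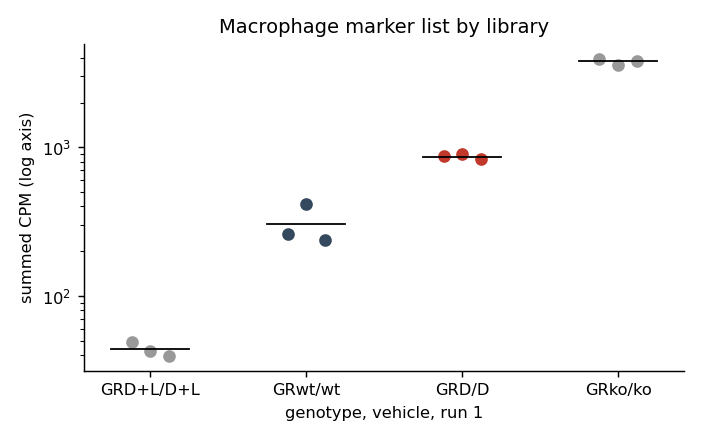
Summed CPM of the macrophage marker list (vertical axis, log scale) in each vehicle library of run 1, by genotype; points are libraries and the line is the mean of 3. The GRD/D libraries sit between 833 and 895 CPM, above GRwt/wt (237 to 418 CPM) and below GRko/ko.

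Lyz2, the lysozyme of macrophages and granulocytes, was at 457, 501 and 437 CPM in GRD/D and at 139, 211 and 120 CPM in GRwt/wt. The difference was 1.57 ± 0.15 (log2, SE; adjusted p = 1.6e-08, edgeR), or 2.97-fold. Adgre1, which encodes the macrophage surface protein F4/80, had 17.9, 18.99 and 18.8 CPM against 3.86, 8.25 and 4.89 CPM. The groups were apart for both genes, with GRwt/wt replicate 2 the highest of its group in both, and the Adgre1 difference was 1.72 ± 0.18 (adjusted p = 8.6e-08). Csf1r, the receptor of the macrophage growth factor, rose by 1.45 (adjusted p = 9.7e-10) and Cd68, a lysosomal protein of phagocytes, by 1.49 (adjusted p = 2.2e-10). Fcgr1, a high-affinity receptor for immunoglobulin G, rose by 1.85 from few counts. The complement subunits C1qa, C1qb and C1qc, made mainly by macrophages, rose by 1.55, 1.22 and 1.40. The tested markers that were not called were Lyz1 (1.14, adjusted p = 0.12) and Aif1 (0.19, adjusted p = 0.72).

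The largest rise among genes with a mean of at least 50 counts was that of Vav1, a guanine nucleotide exchange factor of blood cells. It had 6.94, 5.97 and 6.53 CPM in GRD/D and 1.37, 2.62 and 1.11 CPM in GRwt/wt, a difference of 1.93 ± 0.19 (adjusted p = 4.6e-08). Siglec1, a sialic acid-binding receptor of tissue macrophages, followed with 10.2, 8.30 and 11.9 against 1.62, 4.71 and 1.92 CPM (1.90 ± 0.22). The groups were separate for both, which the rule for ranking genes required. The lowest GRD/D library was well above GRwt/wt replicate 2. The actin-bundling protein Lcp1 of leukocytes had the smallest p among the higher genes with that many counts. Its levels were 55.9, 59.5 and 55.3 CPM in GRD/D and 13.7, 21.1 and 14.0 CPM in GRwt/wt, which is 3.51-fold (adjusted p = 4.8e-12).

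The other genes among the 15 highest with at least 50 counts on average, which excludes lower-count genes with differences as large, included several receptors. The inhibitory Fc receptor Fcgr2b rose by 1.87, the activating Fcgr3 by 1.71, the scavenger receptor Stab1 by 1.73 and the folate receptor Folr2, a marker of resident macrophages, by 1.72. Cd180, Cd300lb and Cd84, surface receptors of myeloid and lymphoid cells, rose by 1.79, 1.78 and 1.72. Nrros, which in macrophages and microglia presents TGF-beta1, rose by 1.78, the motor protein Myo1f by 1.73, the signalling adaptor Pik3ap1 by 1.72 and the haematopoietic transcription regulator Lmo2 by 1.85. The scavenger receptor Msr1 and the endolysosomal exonuclease Pld4, which were among the 6 smallest p-values, rose by 1.70 and 1.67. All adjusted p-values of these genes were 9.4e-06 or smaller.

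Members of other lists that were called higher also belonged in part to blood cells. Both complement genes called were the receptors C5ar1 (1.59) and C3ar1 (1.54), while the other 10 tested members of the complement list did not pass the adjusted p. The leukocyte metalloprotease Adam8 rose by 1.36, the antiviral regulator Trim30a by 1.68, and the aminopeptidase Anpep, found on myeloid cells and pericytes, by 1.16. Vwf, a clotting glycoprotein of endothelium and platelets, was at 3.25, 3.58 and 4.63 CPM against 1.31, 1.96 and 1.49 CPM, and rose by 1.28.

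The genes called higher were then looked up in libraries of other genotypes. GRko/ko and GRD+L/D+L vehicle libraries of run 1 had the highest and the lowest macrophage sum. They share no library with GRD/D or GRwt/wt, but they entered the same edgeR fit and helped set its spread. Of the 204 genes called higher in GRD/D, 192 (94.1%) were also higher in GRko/ko than in GRD+L/D+L, by at least 1 on the log2 scale at an adjusted p of at most 0.05, against 6.90% of all 13066 autosomal genes and 22.5% of the 80 genes called lower. The median difference between those genotypes was 5.75 for the genes called higher, -0.05 for those called lower and -0.0005 for all. Within GRwt/wt, replicate 2 had the highest level of the 3 libraries in 167 of the 204 genes called higher (81.9%), in 19 of the 80 called lower (23.8%) and in 32.0% of all autosomal genes. Whether the macrophage level accounts for these genes was not tested.

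**Figure D2:**
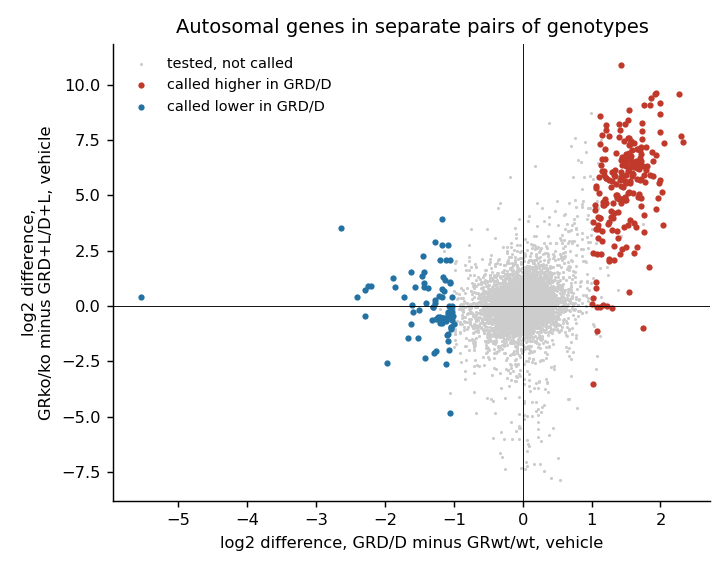
Each point is an autosomal gene; the horizontal axis is its log2 difference between GRD/D and GRwt/wt and the vertical axis that between GRko/ko and GRD+L/D+L, all vehicle libraries of run 1. Of the genes called higher in GRD/D (red), 192 of 204 lie past 1 on the vertical axis, while genes called lower (blue) spread around a median of -0.05.

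The 12 genes called higher that did not follow this pattern were few and mostly low. They were named after their values were seen. Sbsn, a suprabasin of stratified epithelium, rose by 1.17 ± 0.17 (adjusted p = 1.2e-05), and the neuropeptide gene Npy by 1.02 ± 0.21 (adjusted p = 0.0011). Npl, an enzyme of sialic acid breakdown, rose by 1.01, the acid phosphatase Acp5 of osteoclasts and macrophages by 1.02 and the matrix protein Spon2 by 1.06. Apol9b rose by 1.54 and Lrrc55 by 1.30, and the remaining 5 were gene models. For Npy the difference of GRko/ko from GRD+L/D+L was -3.52.

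Genes with roles in fibroblasts or in other lineages were also higher. Gjb2 encodes the gap junction protein connexin 26. It was the 1 called member of the 25 tested textbook targets of GR, where 2.17% of all autosomal genes were called. Its levels were 25.5, 25.9 and 26.8 CPM in GRD/D and 10.8, 9.89 and 12.1 CPM in GRwt/wt, a difference of 1.25 ± 0.09 (adjusted p = 2.2e-10). The groups were far apart and each was tight. Cebpa, a transcription factor of adipocytes and myeloid cells, stood at 19.5, 15.9 and 17.7 CPM against 8.15, 9.30 and 7.62 CPM (1.08 ± 0.09, adjusted p = 8.1e-10). It was the called member of the 5 tested adipocyte markers, of which the lipase Lpl (0.94) and the nuclear receptor Pparg (0.76) passed the adjusted p only. The sum of the adipocyte list was 65.3, 62.1 and 67.4 CPM in GRD/D and 34.1, 41.1 and 31.6 CPM in GRwt/wt, again with GRwt/wt replicate 2 highest in its group (ratio 1.82, exact permutation p = 0.1, two-sided). Rspo2, a secreted activator of Wnt signalling, had 2.23, 2.08 and 1.37 CPM against 0.995, 0.720 and 0.619 CPM (1.26 ± 0.26), and was the called higher member of the Wnt list. Gjb2, Cebpa and Rspo2 were all higher in GRko/ko than in GRD+L/D+L, by 2.04, 2.36 and 2.13.

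The lower set was led by secreted and matrix genes. Igfbp5, a secreted binding protein of insulin-like growth factors, had the smallest p of all genes. It was at 61.1, 50.3 and 72.3 CPM in GRD/D and at 305, 250.3 and 320.4 CPM in GRwt/wt. The difference was -2.25 ± 0.10 (adjusted p = 2.1e-14), so the level in GRwt/wt was 4.77-fold that in GRD/D, with a wide gap between the groups. It was the called member of the 34 tested genes of the IGF and growth factor list, in which 7 others, among them Hgf (0.69), Igf1 (0.60) and Igfbp4 (0.71), passed the adjusted p as higher. Besides Igfbp5, the receptors Met (-0.38) and Igf2r (-0.22) and the ligands Vegfc (-0.38), Angpt2 (-0.56) and Hbegf (-0.16) passed as lower. All autosomal genes had 714 of 13066 higher and 703 lower at the adjusted p, and 0.612% were called lower. The sum of the list was 3470 to 3825 CPM in GRD/D and 3933 to 4184 CPM in GRwt/wt (ratio 0.911, exact permutation p = 0.1, two-sided). This sum includes Igfbp5, at a mean of 61.2 CPM in GRD/D and 292 CPM in GRwt/wt, so it is not separate from that call. The sum without Igfbp5 was not tested.

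The neighbouring matrix metalloproteinase genes Mmp3, Mmp10 and Mmp13 on chromosome 9 were all lower. Mmp3, or stromelysin-1, was at 10.4, 9.24 and 9.90 CPM in GRD/D and at 34.8, 39.2 and 35.0 CPM in GRwt/wt (-1.89 ± 0.32, adjusted p = 0.00016). Mmp13, an interstitial collagenase, was at 11.8, 10.4 and 12.2 CPM against 28.2, 35.2 and 30.8 CPM (-1.46 ± 0.25, adjusted p = 0.00013). Mmp10, or stromelysin-2, was at 6.55, 6.38 and 5.84 CPM against 16.5, 14.99 and 14.6 CPM (-1.30 ± 0.12, adjusted p = 1.9e-08). Each gene had tight levels within a group and no overlap between the groups, which the ranking of the 15 lowest genes required. Adam33, a membrane metalloprotease, fell by 1.04 (and by 0.94, short of the fold limit, without GRwt/wt replicate 3), so that 4 of the 32 tested genes of matrix proteases and inhibitors were called lower and 1, Adam8, higher. At the adjusted p alone, 8 members were lower, among them the gelatinase Mmp9 (-0.80) and Adamts1 (-0.54). Another 4 were higher, with the urokinase gene Plau (0.37), Adamts14 (0.51) and Mmp23 (0.26) beside Adam8. All autosomal genes had 703 of 13066 lower and 714 higher at this limit, and 0.612% called lower and 1.56% higher. The sum of the list went the other way from its called members, at 11484 to 11809 CPM in GRD/D and 10975 to 11410 CPM in GRwt/wt (ratio 1.04, exact permutation p = 0.1, two-sided).

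The starts of these genes are shown because AP-1 sites near the start are the textbook element of this family. The sequences are the 100 bases before the start of each gene in RefSeq (GRCm38.p6, plus strand), 5′ to 3′, with matches to TGANTCA, the AP-1 consensus searched on both strands, in capitals.
Mmp3, chr9:7445722-7445821: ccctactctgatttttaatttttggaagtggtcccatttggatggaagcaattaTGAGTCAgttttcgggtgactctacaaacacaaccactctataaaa
Mmp10, chr9:7502242-7502341: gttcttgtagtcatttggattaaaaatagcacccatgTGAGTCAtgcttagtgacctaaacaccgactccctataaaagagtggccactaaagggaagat
Mmp13, chr9:7272414-7272513: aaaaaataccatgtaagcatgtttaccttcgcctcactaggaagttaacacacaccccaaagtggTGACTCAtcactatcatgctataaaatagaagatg
All 3 hold 1 match, which begins 46, 63 and 35 bases before the start. Of the 32851 RefSeq promoter windows, 6.75% hold a match in the 250 bases before the start. Of genes matched by symbol, it was 5.75% of 9762 tested, 18.2% of 55 called lower and 12.8% of 149 called higher.

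Other matrix genes were lower as well. Prg4, which encodes the lubricating proteoglycan lubricin, had 5.79, 2.70 and 6.32 CPM against 14.0, 11.9 and 15.9 CPM (-1.51 ± 0.21, adjusted p = 6.5e-06), with GRD/D replicate 2 the lowest. Tnn, a tenascin, had 15.2, 12.8 and 16.5 CPM against 33.3, 28.5 and 40.1 CPM (-1.20 ± 0.16). Lama5, a laminin chain of basement membranes, had 18.8, 13.9 and 23.4 CPM against 38.3, 36.9 and 41.7 CPM (-1.06 ± 0.12), with separate groups. It fell short of the fold limit without GRD/D replicate 2, at -0.88. Fras1, an extracellular matrix protein of the embryonic epidermal basement membrane, fell by 1.17. Of 51 tested glycoprotein and proteoglycan genes, 3 were called lower and 0 higher, against 0.612% and 1.56% of all autosomal genes. At the adjusted p, 6 were lower and 5 higher, where all autosomal genes had 703 and 714 of 13066.

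Collagen chains were lower more often than higher at the adjusted p, in 11 against 1 of 32 tested chains. Among all 13066 autosomal genes, 703 passed as lower and 714 as higher. The chains called were 2, Col25a1 (-1.43) and Col20a1 (-1.05), where 0.612% of all autosomal genes were called lower. Col25a1, a transmembrane collagen, was at 0.509, 0.363 and 0.948 CPM against 1.62, 1.18 and 2.17 CPM, and Col20a1 was likewise low. Col20a1 fell short of the fold limit without GRD/D replicate 2 (-0.91), GRD/D replicate 3 (-0.92) or GRwt/wt replicate 3 (-0.98). Among the smaller differences were Col12a1 (-0.57) and Col18a1 (-0.52), while the fibrillar Col3a1 was higher by 0.43 (adjusted p = 0.049). The sum over the list was 37295, 29490 and 43071 CPM against 38978, 40221 and 42233 CPM, so the total overlapped between the groups and GRD/D replicate 2 was lowest (ratio 0.905, exact permutation p = 0.5, two-sided). The median difference of the list was -0.20.

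**Figure D3:**
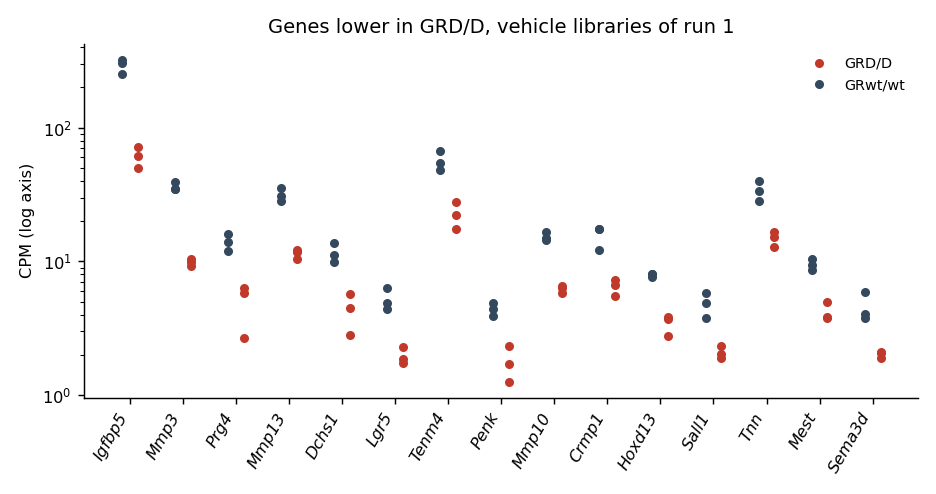
CPM (log axis) of the 15 genes with the largest fall among called genes with at least 50 counts on average, in each vehicle library of GRwt/wt (dark) and GRD/D (red), run 1. The genes were chosen among those without overlap, and Igfbp5 spans from 50.3 to 320.4 CPM.

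Among 61 tested transcription factors of limb and tissue patterning, 6 were called lower, against 0.612% of all autosomal genes, and 0 higher. At the adjusted p, 16 were lower and 6 higher, against 703 and 714 of the 13066 autosomal genes. The sum of the list was 1374 to 1518 CPM in GRD/D and 1479 to 1522 CPM in GRwt/wt, with overlapping groups (ratio 0.966, exact permutation p = 0.3, two-sided). Sall1, a zinc finger protein of limb and kidney development, was at 1.91, 2.02 and 2.32 CPM against 4.85, 3.797 and 5.82 CPM (-1.21 ± 0.16, adjusted p = 6.7e-06). Eya1, a transcriptional co-activator of organ development, was at 4.96, 6.02 and 6.00 CPM against 13.1, 11.5 and 11.6 CPM (-1.08 ± 0.13, adjusted p = 5.6e-07). Lhx2, a LIM homeobox gene, was lower by 1.85 from few counts, and the homeobox gene Msx1 was at 0.827, 0.519 and 1.26 CPM against 1.99, 1.05 and 2.60 CPM, with overlapping groups. The call of Msx1 was lost without GRD/D replicate 1 (-1.08), GRD/D replicate 2 (-0.83), GRwt/wt replicate 1 (-1.07) or GRwt/wt replicate 3 (-0.80). Factors that were higher at the adjusted p included Lhx8 (0.92) and Wt1 (0.78). The median difference of the list was -0.08, and 0.03 without the filter on low counts.

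Among 33 tested Hox genes, which encode position along the body and limb axes, Hoxd13 of the distal limb was called lower. It had 3.82, 2.75 and 3.68 CPM in GRD/D and 8.02, 7.66 and 7.99 CPM in GRwt/wt (-1.22 ± 0.14, adjusted p = 4.0e-07). The other 5 that passed the adjusted p were all lower by less, Hoxb8 (-0.42), Hoxc8 (-0.38), Hoxb5 (-0.34), Hoxc6 (-0.33) and Hoxb9 (-0.27). For comparison, 703 of 13066 autosomal genes passed as lower and 714 as higher, and 0.612% were called lower. The median of the Hox list was -0.10, and the sums of the list were 402, 374 and 395 CPM against 447, 425 and 443 CPM, with separate groups (ratio 0.891, exact permutation p = 0.1, two-sided).

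Signalling genes were lower in smaller numbers. Lgr5, the receptor of R-spondins, was at 2.29, 1.87 and 1.74 CPM against 4.85, 4.39 and 6.32 CPM (-1.41 ± 0.25, adjusted p = 0.00029). On the Wnt list of 25 tested genes, 7 passed the adjusted p as lower, among them the antagonists Frzb (-0.99) and Dkk2 (-0.81). As higher passed 2, Rspo2 and the antagonist Sfrp1 (0.80). For this and the other lists here, all autosomal genes had 703 of 13066 lower and 714 higher at the adjusted p. Of all autosomal genes, 0.612% were called lower and 1.56% higher. Gdf6, a BMP ligand of joint formation, was lower by 1.07 and was the called member of 39 tested BMP, TGF-beta and Fgf genes. Without GRD/D replicate 3 or GRwt/wt replicate 2 it was at -0.99, just short of the limit. Penk, the precursor of enkephalins, was at 1.72, 2.33 and 1.26 CPM against 4.91, 3.93 and 4.397 CPM (-1.31 ± 0.29). The imprinted gene Mest was at 3.75, 3.84 and 4.95 CPM against 8.58, 10.5 and 9.41 CPM (-1.17 ± 0.18), and 5 of 26 tested imprinted growth genes, with Peg3 (-0.40), Meg3 (-0.31), Nnat (-0.30) and Igf2r (-0.22), passed the adjusted p, all lower.

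Cell surface and guidance genes completed the 15 lowest. Tenm4, a teneurin of cell adhesion, was at 22.2, 17.5 and 28.0 CPM against 54.6, 47.9 and 66.9 CPM (-1.32 ± 0.14). Dchs1, a giant protocadherin of planar polarity, fell by 1.43, Crmp1, a cytoskeletal protein of semaphorin signalling, by 1.27 and the semaphorin Sema3d by 1.17, or 0.93 without GRwt/wt replicate 3. Tfpi2, a secreted serine protease inhibitor, was lower by 1.04 with a small error (SE 0.07, adjusted p = 1.4e-10), and fell short of the fold limit without GRD/D replicate 3 (-0.95) or GRwt/wt replicate 1 (-0.98). Saa3, an acute phase protein, was lower by 2.64 from 0.191, 0.156 and 0.263 CPM against 1.56, 1.57 and 0.805 CPM, and its call was lost without GRD/D replicate 1 (-2.60), GRD/D replicate 2 (-2.47), GRwt/wt replicate 1 (-2.49) or GRwt/wt replicate 2 (-2.48). Emcn, an endothelial sialomucin, was lower by 1.97, opposite to the other called endothelial marker, Vwf. The lowest log2 difference of all belonged to the gene model Gm8615 on chromosome 5, which is outside the naming rule and was chosen after its value was seen. Its levels were 0.127, 0.104 and 0.105 CPM in GRD/D and 5.29, 4.65 and 6.69 CPM in GRwt/wt, a difference of -5.55 (adjusted p = 1.8e-12). This was not particular to GRD/D. Against the same GRwt/wt libraries, Gm8615 was at -5.51 in GRko/ko and -5.91 in GRD+L/D+L. In GRL/L against GRwt/wt of run 2 it was at 0.15.

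Nr3c1 and the GR-induced genes Fkbp5, Dusp1 and Tsc22d3 did not pass the adjusted p in vehicle. Nr3c1 itself was at 69.6, 78.4 and 73.8 CPM in GRD/D and 64.4, 66.1 and 70.9 CPM in GRwt/wt, with overlapping groups (0.14 ± 0.06, adjusted p = 0.14). Fkbp5, a co-chaperone that GR induces, was at 51.7, 54.3 and 52.6 CPM against 45.8, 64.4 and 45.4 CPM (0.03 ± 0.08, adjusted p = 0.87). Dusp1, a phosphatase of MAP kinases, was at 0.09 ± 0.06 (adjusted p = 0.44), and the X-linked Tsc22d3, which encodes Gilz, at 0.02 ± 0.07 (adjusted p = 0.91). Of the 25 tested textbook targets, 3 passed the adjusted p as higher and 3 as lower, where 10.8% of all autosomal genes passed in either direction. Apart from Gjb2 the largest difference among the 6 was the clock gene Per1 (-0.52, adjusted p = 0.0017). The median of these targets was 0.0064. Of 21 tested genes of GR, its chaperones and co-regulators, 1 was called, where 2.17% of all autosomal genes were called. This was Hsd11b2, the enzyme that inactivates glucocorticoids. It was low, at 0.255, 0.674 and 0.316 CPM against 1.37, 1.11 and 1.42 CPM (-1.60 ± 0.40, adjusted p = 0.0081). Hsd11b1 of the same list, also of few counts, was at -0.99 and did not pass (edgeR adjusted p = 0.096).

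Genes that Dex regulates were set out from libraries outside the comparison, the GRwt/wt libraries of run 2. Of 234 autosomal genes raised there by Dex, at the same adjusted p and fold limits, 27.4% passed the adjusted p between GRD/D and GRwt/wt in vehicle, 8 were called higher and 6 lower, and their median difference was -0.02. Of 184 genes lowered there, 38.6% passed, 16 were called higher and 16 lower, and the median was 0.04. Both shares stood above the 10.8% of all autosomal genes, with medians near 0. They fell to 13.5% and 17.5% when the Dex lists were taken without the fold limit. Of all autosomal genes, 1.56% were called higher and 0.612% lower. Leaving out the genes that were higher in GRko/ko than in GRD+L/D+L left 191 raised genes, of which 0 were called higher and 4 lower. It also left 136 lowered genes, of which 3 were called higher and 9 lower. The same rule takes out 192 of the 204 autosomal genes called higher but 18 of the 80 called lower. Few higher calls could thus remain, and the counts after this step do not compare the directions. Before that step, all 3 metalloproteinases above were among the 184 lowered genes, with Dex effects in run 2 of -1.16 for Mmp3, -2.63 for Mmp10 and -1.07 for Mmp13, as was Gjb2 (-1.87). The step removed Mmp3, Mmp13 and Gjb2, which were higher in GRko/ko than in GRD+L/D+L by 1.28, 1.36 and 2.04, and left Mmp10 (-0.05). Against GRwt/wt, Mmp3 was at -0.95 in GRko/ko and -2.23 in GRD+L/D+L, Mmp13 at -0.08 and -1.44, and Gjb2 at 2.39 and 0.34. The step thus also took out genes that were not higher in GRko/ko than in GRwt/wt. Prg4 and Hsd11b2, lower in GRD/D, were raised by Dex in run 2, by 1.92 and 1.30.

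Several lists had more members past the adjusted p as higher than as lower, where all autosomal genes had 714 and 703 of 13066. The cell cycle list had 12 of 43 tested genes higher and 0 lower at the adjusted p, none of them 2-fold, among them the cyclins Ccnb1 (0.40) and Ccne2 (0.36) and the topoisomerase Top2a (0.22), with a median of 0.16. Hypoxia and glycolysis genes passed as higher in 10 of 28 and as lower in 0, with Epas1, a hypoxia-inducible factor (0.75), the lactate transporter Slc16a3 (0.47) and Vegfa (0.33) among them. Pkm, the member of this list with the most counts, differed by 0.05 (adjusted p = 0.50). Chemokine, cytokine and adhesion genes passed as higher in 8 and as lower in 2 of 31, including prostacyclin synthase Ptgis (0.91) and the interleukin-1 antagonist Il1rn (0.88), while Saa3 on this list was called lower. Interferon-stimulated genes passed as higher in 5 and as lower in 0 of 24, and sterol and fatty acid synthesis genes likewise in 5 and 0 of 30, led by the sterol transfer protein Stard4 (0.86). Between GRko/ko and GRD+L/D+L, which had the highest and the lowest macrophage sum, the medians were 0.54 for the cell cycle, 0.49 for the interferon, 0.26 for the chemokine, -0.20 for the hypoxia and -0.18 for the sterol list. Trim30a of the interferon list and Il1rn were higher in GRko/ko by 6.47 and 2.03. The part of the macrophage level in these lists was not tested.

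In the remaining lists no tested gene was called. At the adjusted p, all autosomal genes had 714 of 13066 higher and 703 lower. Contractile genes, with Acta2 at -0.06 (adjusted p = 0.41), passed the adjusted p in 3 of 23 each way. Genes of p53 and senescence passed in 2 of 28 as higher and 5 as lower, heat shock and ER stress genes in 3 and 1 of 24, immediate early genes in 1 and 1 of 23, and MHC genes in 1 and 0 of 19. Retinoid and xenobiotic genes passed in 6 of 28 as higher, among them Cyp1b1 (0.55), and in 2 as lower, where Crabp1, a retinoic acid-binding protein, was at 286, 301 and 215 CPM against 401, 348 and 386 CPM (-0.50).

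**Figure D4:**
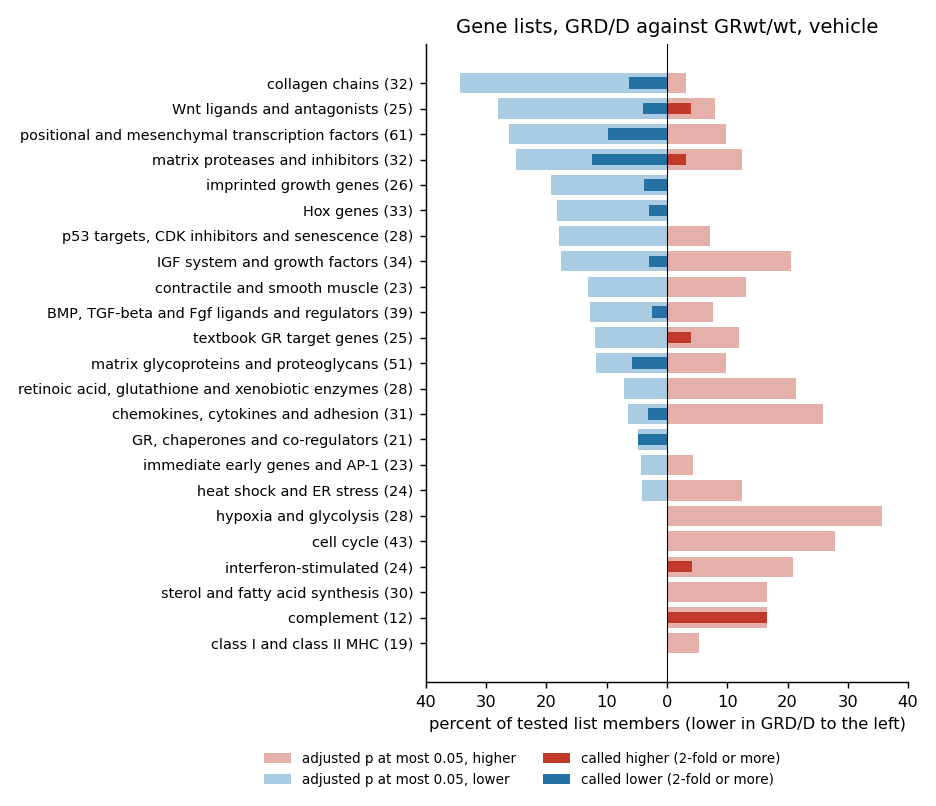
Percent of the tested members of each pathway list (their number; cell type lists are not shown in parentheses) that passed the adjusted p (pale) and that were also called at 2-fold or more (dark), higher in GRD/D to the right and lower to the left, vehicle libraries of run 1. Collagen chains extend furthest to the left (11 of 32 lower) and hypoxia and glycolysis genes furthest to the right (10 of 28 higher).

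Few markers of other cell types were called. None was called among 8 tested cartilage, 3 bone, 2 skeletal muscle, 12 neural and glial, 5 epithelial and 5 mesothelial markers, and the erythroid list had no gene above the filter. Of 6 tested pericyte markers, Anpep was called, whereas Mcam, a pericyte adhesion molecule, was lower by 0.55 at the adjusted p. The epithelial list summed to 44.9, 47.5 and 45.01 CPM in GRD/D and 60.3, 54.7 and 57.0 CPM in GRwt/wt, with separate groups (ratio 0.799, exact permutation p = 0.1, two-sided). The sums were also separate for the skeletal muscle list, at 571 to 588 against 621 to 727 CPM (ratio 0.841). The same held for the mesothelial list, at 34.0 to 36.4 against 38.3 to 39.3 CPM (ratio 0.908), both with an exact permutation p of 0.1. Single genes made up much of these sums. Acta1 of the muscle list was at 570 to 586 against 619 to 724 CPM (edgeR adjusted p = 0.057). Bnc1 of the mesothelial list was at 18.3 to 19.3 against 22.7 to 24.8 CPM, while the list median was 0.06. Perp of the epithelial list was at 25.4 to 28.6 against 33.2 to 38.9 CPM. The sums without these genes were not tested. The endothelial and pericyte sums overlapped between the groups.

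Called genes were spread over the genome, from 1.24% of tested genes on chromosome 8 to 3.50% on chromosome 1. Within 10 Mb of Nr3c1, the locus that carries the mutation, 3 of 153 tested genes (1.96%) were called and 20 (13.1%) passed the adjusted p. Of all autosomal genes, 2.17% were called and 10.8% passed the adjusted p, so both local shares were close to these. A further 9 X-linked genes were called and are not described here.

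The Dex libraries of the same genotypes share no library with the vehicle groups, but they entered the same edgeR fit. Whether they share cultures is not given. Between GRD/D and GRwt/wt with Dex, 416 autosomal genes (3.18%) were called, 266 higher and 150 lower. 210 genes were called in both treatments, 166 higher and 44 lower, which is 73.9% of the vehicle list and 50.5% of the Dex list. Of the 284 genes called in vehicle, 276 differed in the same direction with Dex, and none of the other 8 passed the adjusted p there. Igfbp5 was at -2.25 in vehicle and -2.04 with Dex, Lcp1 at 1.81 and 1.93, and Mmp3 at -1.89 and -1.40. Lgr5 and Penk were at -1.41 and -1.31 in vehicle but at -0.28 and -0.16 with Dex (adjusted p = 0.60 and 0.76 there), and the change between treatments did not pass the interaction test (adjusted p = 0.13 for Lgr5 and 0.12 for Penk).

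**Figure D5:**
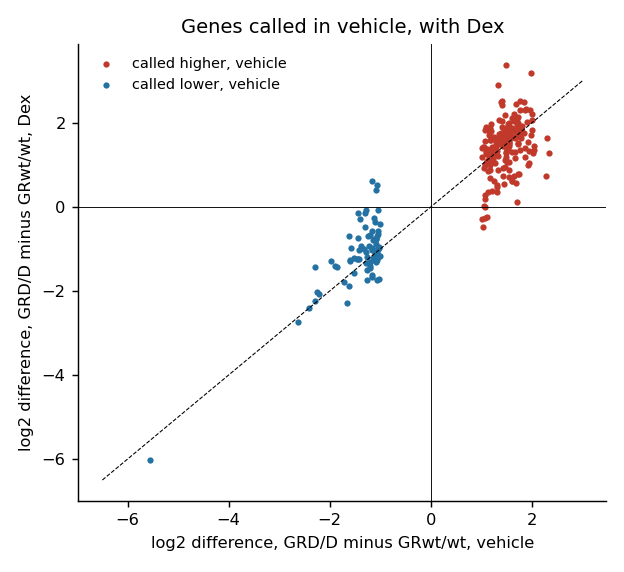
Log2 difference between GRD/D and GRwt/wt in vehicle (horizontal axis) and with Dex (vertical axis) for the 284 autosomal genes called in vehicle, run 1; the dashed line marks equal differences. In 276 of the genes the sign is the same in both treatments.

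The genes called in vehicle were last set beside the vehicle differences of the other mutants. In GRL/L, compared with GRwt/wt of run 2 and thus with no shared library, 69 of the 204 were called higher and 0 lower. Of the 80, 2 were called higher and 0 lower, against 94 higher and 16 lower among all 13066 genes. Macrophage markers were among the genes higher in GRL/L, with Adgre1 at 1.15, Fcgr1 at 0.89, Lyz2 at 0.82 and Fcgr3 at 0.78. The macrophage sum was not computed in run 2, and its part in the 69 genes was not tested. GRko/ko and GRD+L/D+L were set against the same GRwt/wt libraries as GRD/D, so their values are given side by side only. Igfbp5 was lower than in GRwt/wt by 0.67 in GRko/ko and by 1.56 in GRD+L/D+L, and higher by 0.67 in GRL/L. Mmp10 was lower in all of these, by 1.70 in GRko/ko, 1.64 in GRD+L/D+L and 0.82 in GRL/L, whereas Mmp13 was at -1.44 in GRD+L/D+L, -0.08 in GRko/ko and 0.04 in GRL/L.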

How the data were processed

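Raw counts of uniquely mapped reads per gene were deposited by the authors, who made them from TruSeq libraries with HISAT2 2.1.0 (mm10) and featureCounts 2.0.0; the strand setting and annotation release are not given in the sources used here, so overlapping and near-identical genes are uncertain. Symbols and coordinates were found for 55227 of 55487 identifiers (GENCODE, GRCm38).

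Genes were filtered by filterByExpr on the 6 libraries (13536 kept). edgeR 4.0.16 (R 4.3.3) was fitted to the 24 libraries of run 1 with a term per genotype and treatment (TMM, quasi-likelihood F test); the biological coefficient of variation was 0.0496. Standard errors are |log2 difference| divided by the root of F. GRwt/wt of run 2 and GRL/L were fitted on run 2. The fit was tested on simulated data. Alternatives included DESeq2 1.42.0. The members and gene lists were chosen with earlier results of these data known.

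Named genes were autosomal, called, without overlap and with a mean of at least 50 counts: the 15 highest, 15 lowest and 6 of smallest p. Called list members (up to 4 per list and direction), Nr3c1, Tsc22d3, Fkbp5, Dusp1 and the most counted member of lists without calls were added; not all are described. List members that passed only the adjusted p were named after their values were seen. GRko/ko against GRD+L/D+L, its use as a filter on the Dex lists, and the alternatives for the marker sums and for single Dex libraries were added after the data were seen. Promoter sequences are from RefSeq (GRCm38.p6).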

Additional observations from a re-analysis of the deposited data

Results flagged for a closer look

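Among the named genes, 7 had a difference between GRD/D and GRwt/wt that itself differed between Dex and vehicle by the interaction term of the edgeR fit (Dex minus vehicle, log2). Only Cebpa, Lama5 and Mmp10 of these were called in vehicle. Cebpa differed by 1.08 in vehicle and 0.28 with Dex, an interaction of -0.81 ± 0.12 (SE; adjusted p = 4.3e-05). Its GRwt/wt levels were 8.15, 9.30 and 7.62 CPM in vehicle and 13.6, 14.2 and 12.9 CPM with Dex, whereas GRD/D was at 15.9 to 19.5 and 16.0 to 17.0 CPM. Lama5 went from -1.06 to -1.75 (interaction -0.68 ± 0.17, adjusted p = 0.017), as GRwt/wt stood at 36.9 to 41.7 CPM in vehicle and at 66.1 to 71.0 CPM with Dex. Mmp10 went from -1.30 to -0.49 (interaction 0.81 ± 0.19, adjusted p = 0.011), with GRwt/wt at 14.6 to 16.5 CPM in vehicle and 5.94 to 8.55 CPM with Dex. The other 4 did not pass the adjusted p in vehicle. Their interactions were -1.5 for Fkbp5 (adjusted p = 1.1e-10), -1.32 for Tsc22d3 (adjusted p = 3.0e-10), -0.73 for Dusp1 (adjusted p = 2.6e-06) and 0.33 for Nr3c1 (adjusted p = 0.022). Over all autosomal genes 501 had an interaction at the adjusted p, and 10 of them were among the 284 called in vehicle.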

How the results depend on the processing

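The count of 284 genes stayed within 1.5 times under DESeq2 (278), median-ratio size factors (284), no filter on low counts (339), at least 10 counts in every library (192), only the 6 libraries (241), run 1 without GRko/ko (287) and all 36 libraries with a run term (320). Leaving out each library gave 239 to 310 genes, the most without GRwt/wt replicate 2. Replicate numbers were not taken as pairs, since deviations of the same-numbered libraries correlated at 0.05, 0.03 and 0.19, and GRD/D replicate 2 correlated best with GRwt/wt replicate 1; with the replicate block 285 genes were called in vehicle and 413 with Dex. The adjusted p alone gave 1417 genes, 714 higher and 703 lower, and 41.9% of these higher genes were also higher in GRko/ko than in GRD+L/D+L; under the other alternatives that share was 81.3 to 96.5%. Macrophage markers were called in 15 to 17 cases, and the ratio of their sums was 2.58 to 3.51 with each library left out in turn. When genes regulated by Dex in run 2 were taken without a fold limit, 13.5% of the raised and 17.5% of the lowered genes passed the adjusted p in vehicle. Of the 56 named genes that were called, 44 stayed called in all of up to 15 alternatives and 0 changed sign. Without one of the libraries the calls of Adam33, Tfpi2, Col20a1, Lama5, Gdf6, Msx1, Sema3d and Saa3 were lost, with the values given above; Rspo2, Cebpa, Hsd11b2, Tfpi2 and Saa3 were lost with all 36 libraries (0.93, 0.99, -1.19, -0.97 and -3.34), and Col25a1 and Msx1 with only the 6 (-1.43 and -1.11). The cause of the lost calls was not tested. With 3 libraries per group, genes of few counts, such as Saa3, Lhx2 and Hsd11b2, had wide errors.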
